A study of Caenorhabditis elegans with 4 samples.

Results

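The anaphase-promoting complex, or APC/C, is the ubiquitin ligase that lets chromosomes separate and cells leave division. The 10 genes described here encode 8 of its subunits and its 2 activators in C. elegans. They were chosen by name as the rows of the count files whose WormBase symbol is mat-1, mat-2, mat-3, emb-1, emb-27, emb-30, apc-2, apc-11, fzy-1 or fzr-1, and all 10 were found among the 46934 genes counted. This choice by name was made with earlier results of these data known. mRNA-seq was performed on whole adult animals, with 2 control libraries and 2 ATTF-6 depletion libraries. All 4 came from animals carrying wrdSi51, an insertion on chromosome II in which the germline promoter of mex-5 drives TIR1::F2A::mTagBFP2::AID*::NLS, and all animals were placed on 4 mM auxin from the L4 larval stage at 20 °C. The depletion libraries came from animals that also carried GFP::tev::aid::attf-6 on chromosome I, in which TIR1 and auxin direct the tagged ATTF-6 protein, an AT-hook transcription factor, to degradation. The tagged allele is present only in the depletion libraries, so an effect of the tag and an effect of the loss of the protein cannot be told apart.

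The APC/C attaches ubiquitin chains to its substrates and so marks them for the proteasome. In the complex, a cullin-like subunit and a RING subunit form the catalytic core, a scaffold and a set of tetratricopeptide repeat proteins hold it together, and the exchangeable activators CDC20 and CDH1 bring the substrates. Its substrate securin restrains separase, the protease that cuts cohesin, and its substrates the B-type cyclins keep CDK1 active. In C. elegans the complex is known above all from the mat and emb mutants, whose embryos arrest in metaphase of the first meiotic division.

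All 10 genes fell upon ATTF-6 depletion as shares of the library. When the libraries were scaled to 18 germ cell genes, 3 of them (apc-11, fzy-1 and emb-27) also fell and emb-30 rose. Under that scaling 7 of the 18 germ cell genes were themselves lower and 6 higher, and of all genes tested 6.76% were lower and 74.3% higher. By the quasi-likelihood test of edgeR, at a Benjamini-Hochberg adjusted p under 0.05 over all genes, 10 of 10 were lower and 0 were higher, against 32.1% of all genes tested being lower and 30.9% higher. Of the 10, 9 fell by at least 1 on the log2 scale, against 20.0% of all genes tested. All 10 encode proteins, and of the protein-coding genes tested 33.5% were lower, 31.1% higher and 20.7% lower by at least 1 on the log2 scale. The median log2 fold change of the 10 was -1.27, with a range from -2.22 for apc-11 to -0.53 for emb-30, against a median of 0.16 over the 16591 genes tested. For each gene both depletion libraries lay below both control libraries, which was also found for 38.2% of all genes tested. The summed normalised read count of the 8 subunit genes was 638.2 and 647.1 CPM (counts scaled to the normalised library total) in the control libraries and 270.1 and 294.3 CPM in the depletion libraries, 43.9% of the control mean. The summed count of the 2 activators was 268.3 and 264.5 CPM against 88.9 and 107.3 CPM, 36.8% of the control mean. In whole animals, fewer cells of a type and less RNA per cell cannot be told apart, and these values are shares of the RNA in a library. The paper reports that the germline atrophied when ATTF-6 was depleted from the L4 stage. The part of this atrophy in the values was not tested.

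The libraries held between 23923423 and 32096525 counts on genes, with the lower totals in the depletion. The spread between replicates was wider in the depletion, where the chi-square per gene of the pair was 48.7, compared with 3.73 for the control pair. The methods speak of biological replicates but do not say whether these came from separate cultures, so the p-values measure only the spread between these samples, which may be technical. The mRNA of attf-6 itself (WBGene00012474) was 162.9 and 173.1 CPM in the control libraries and 100.9 and 125.8 CPM upon depletion, although auxin acts on the protein, whose depletion this value does not measure. Of the 10 genes, each had whole counts in every library, although fractions of divided reads can also sum to whole numbers. The counts of the 10 genes ranged from 99, for apc-11 in depletion replicate 2, to 5225, for mat-2 in control replicate 1.

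**Figure D1:**
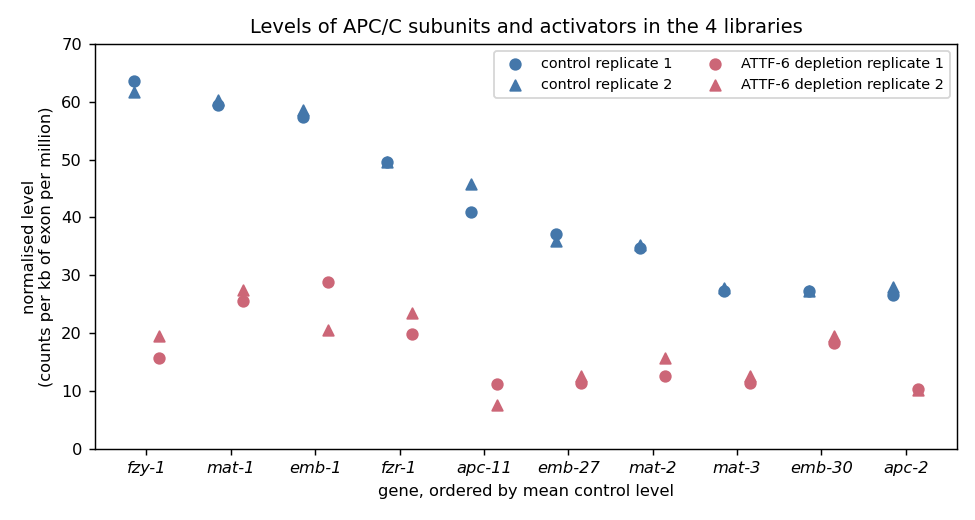
Normalised level (CPM per kilobase of exon, y axis) of each of the 10 genes (x axis, ordered by the control mean), with 1 point per library, circles for replicate 1 and triangles for replicate 2. For every gene the 2 ATTF-6 depletion points lie below the 2 control points, and the order of the genes differs between the groups, with fzy-1 highest in the control at 62.6 and mat-1 highest upon depletion at 26.5.

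The catalytic core was examined first. The gene apc-2 (WBGene00000143, chromosome III: 8080629 to 8083701, plus strand, WBcel235) encodes the cullin-like subunit. It had 61.3 and 64.6 CPM in the control libraries and 23.9 and 23.7 CPM upon depletion, so the groups were apart and the depletion libraries were nearly equal. Its log2 fold change was -1.40 (SE 0.10, adjusted p = 8.8e-06). The gene apc-11 (WBGene00000145, chromosome III: 4593863 to 4594424, minus strand) encodes the RING subunit, which binds the ubiquitin-conjugating enzyme. It had 19.2 and 21.5 CPM in the control libraries and 5.24 and 3.55 CPM upon depletion, the largest fall of the 10 genes, with depletion replicate 2 the lowest library. Its log2 fold change was -2.22 (SE 0.21, adjusted p = 3.0e-05), between -2.52 and -2.01 with each library left out in turn.

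Next came the scaffold and small subunits. The gene mat-2 (WBGene00003133, chromosome II: 11112719 to 11120805, plus strand) encodes the ortholog of APC1, the largest subunit and a scaffold of the complex. Its values were 160.3 and 162.4 CPM in the control libraries and 57.8 and 72.1 CPM upon depletion, and the depletion libraries were further apart than the controls. The level was 2.48-fold lower (log2 fold change -1.31, standard error 0.13, adjusted p = 3.5e-05). The gene emb-30 (WBGene00001284, chromosome III: 9435507 to 9441460, minus strand) encodes the ortholog of APC4. It was 88.6 and 88.3 CPM in the control libraries and 59.3 and 63.5 CPM upon depletion, so that the groups were still apart. This was the smallest fall of the 10 (log2 fold change -0.53, SE 0.10, adjusted p = 0.0017). The gene emb-1 (WBGene00019630, chromosome III: 5173439 to 5173809, plus strand) encodes the small subunit orthologous to APC16. Its values were 17.3 and 17.7 CPM against 8.72 and 6.21 CPM, with depletion replicate 2 the lowest, and its log2 fold change of -1.23 had a standard error of 0.19 (adjusted p = 4.9e-04).

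The tetratricopeptide repeat subunits fell in each case. The gene mat-1 (WBGene00003132, chromosome I: 5123915 to 5127201, minus strand) is the ortholog of CDC27, to which the activators bind. It was 158.4 and 160.6 CPM in the control libraries and 68.1 and 73.1 CPM upon depletion. The gene mat-3 (WBGene00003134, chromosome III: 475454 to 482325, plus strand), the ortholog of CDC23, was 57.6 and 58.8 CPM against 24.1 and 26.7 CPM. In both genes all control libraries exceeded all depletion libraries and the fall was close to the median of the 10, with log2 fold changes of -1.18 for mat-1 and -1.20 for mat-3 (SE 0.10 and 0.11, adjusted p = 2.2e-05 and 2.4e-05). The gene emb-27 (WBGene00001281, chromosome II: 8159865 to 8162170, minus strand), the ortholog of CDC16, fell further. It was 75.5 and 73.2 CPM in the control libraries and 23.1 and 25.5 CPM upon depletion (log2 fold change -1.61, SE 0.11, adjusted p = 5.8e-06).

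The activators fell by unequal amounts. The gene fzy-1 (WBGene00001511, chromosome II: 5500770 to 5503912, plus strand) encodes the CDC20 ortholog, which acts at the onset of anaphase and is the target of the spindle checkpoint. It was 119.5 and 115.9 CPM in the control libraries and 29.5 and 36.7 CPM upon depletion (log2 fold change -1.83, SE 0.13, adjusted p = 7.1e-06). The gene fzr-1 (WBGene00001510, chromosome II: 9640156 to 9644466, minus strand) encodes the CDH1 ortholog, which acts later in division and in G1, and in C. elegans is known to restrain G1 progression together with lin-35. It was 148.8 and 148.6 CPM in the control libraries and 59.5 and 70.6 CPM upon depletion (log2 fold change -1.19, SE 0.12, adjusted p = 3.7e-05). Within a library the ratio of the counts of fzy-1 to fzr-1 does not depend on the normalization. This ratio was 0.803 and 0.780 in the control and 0.496 and 0.520 upon depletion, a change of -0.64 on the log2 scale. The groups did not overlap, and the two-sided exact permutation test gave p = 0.33, the smallest value that 2 libraries against 2 allow.

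**Figure D2:**
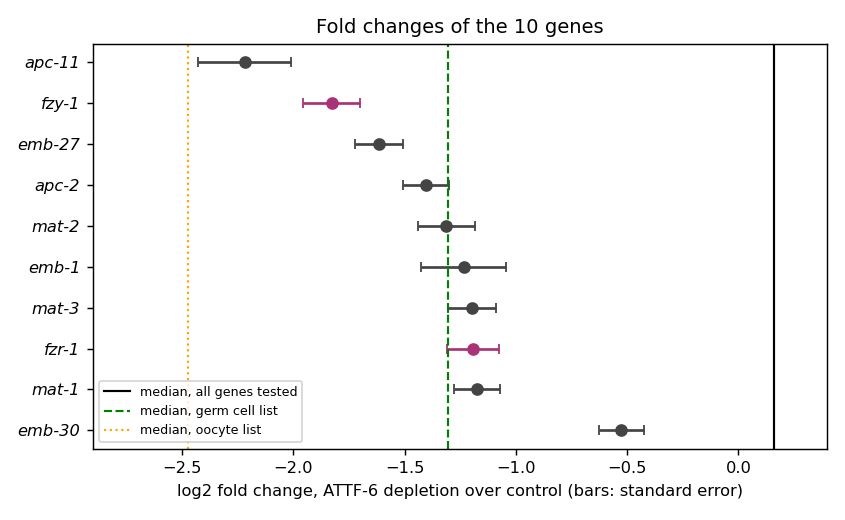
Log2 fold change of ATTF-6 depletion over control (x axis) with its standard error (bars) for each of the 10 genes (y axis), subunits in dark grey and the activators fzy-1 and fzr-1 in purple. Vertical lines mark the medians of all genes tested (0.16), of the germ cell list (-1.30) and of the oocyte list (-2.48), and the genes spread from -0.53 for emb-30 to -2.22 for apc-11. Scaled to the germ cell genes, 3 of the 10 were lower, against 6.76% of all genes tested, and emb-30 was higher, as were 74.3% of all genes tested.

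Levels were next compared between genes per length, as CPM per kilobase of exon. In the control the 10 genes spanned a 2.30-fold range, from 62.6 for fzy-1 through 59.9 for mat-1, 57.9 for emb-1, 49.6 for fzr-1, 43.4 for apc-11, 36.6 for emb-27 and 35.0 for mat-2 to 27.5 for mat-3, 27.3 for emb-30 and 27.2 for apc-2. The libraries of mat-3, emb-30 and apc-2 overlapped, and all other neighbours in this order did not. Among the protein-coding genes tested, these per-length levels lay between the 73.1 and 89.4 percentiles. Upon depletion the range was 2.83-fold. The highest genes were mat-1 at 26.5 and emb-1 at 24.7, which overlapped, and the lowest were apc-2 at 10.3 and apc-11 at 9.38, which also overlapped. From control to depletion, emb-30 moved from rank 9 to rank 4, fzy-1 from rank 1 to rank 5 and apc-11 from rank 5 to rank 10.

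The composition of the subunit mRNAs was described by the share of each gene in the summed per-length level of the 8 subunits within a library. The share of emb-30 was 8.80% and 8.54% in the control and 14.1% and 15.5% upon depletion. The share of apc-11 was 13.2% and 14.4% against 8.64% and 6.01%. That of emb-27 was 11.95% and 11.3% against 8.76% and 9.94%. The groups did not overlap in these 3 genes, nor in mat-1, mat-3 and apc-2. The shares in a library depend on each other, since a rise of 1 lowers the others. With 2 libraries against 2, the exact permutation test gives no p below 0.33 for such a separation. Those of emb-1 and mat-2 did, with 11.2% and 11.1% against 9.68% and 12.4% for mat-2. In shares of counts rather than counts per kilobase, the mat-2 groups did not overlap (mean 25.1% against 22.9%), the change of apc-11 was -1.59 percentage points in place of -6.45, and that of emb-30 was 7.99 in place of 6.15. Further ratios of counts were picked with their values known. The ratio of emb-30 to mat-2 was 0.553 and 0.544 in the control and 1.03 and 0.881 upon depletion, and that of apc-11 to apc-2, the catalytic pair, was 0.313 and 0.332 against 0.22 and 0.15. By contrast, the ratio of mat-1 to mat-3 was 2.75 and 2.73 against 2.83 and 2.73, with overlapping groups.

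**Figure D3:**
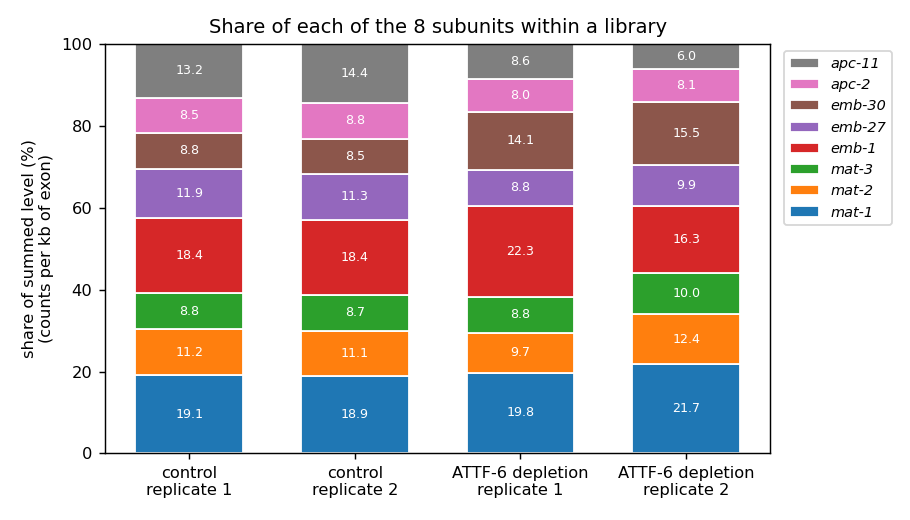
Share of each of the 8 subunit genes in their summed level in counts per kilobase of exon (y axis, percent) in each of the 4 libraries (stacked bars). The segment of emb-30 is 8.80% and 8.54% in the control and 14.1% and 15.5% upon depletion, while that of apc-11 falls from 13.2% and 14.4% to 8.64% and 6.01%.

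The 2 shortest genes behaved apart from the others between the depletion replicates. With exonic lengths of 469 and 302 bases, apc-11 and emb-1 were lower in depletion replicate 2 than in replicate 1, by -0.56 and -0.49 on the log2 scale. Of the other 8 genes, which have between 1879 and 4609 exonic bases, 7 were higher in depletion replicate 2, by up to 0.32 for mat-2 and fzy-1, and apc-2 differed by -0.014. Protein-coding genes tested with a mean of at least 50 counts showed a difference of the same sign by length. Its median was -0.27 over the 770 genes of up to 500 bases and 0.14 over the 3177 genes of over 2000 and up to 5000 bases, while between the controls the medians were -0.012 and 0.0040. Over the 5131 genes of over 1000 and up to 2000 bases, the class of fzy-1, the median between the depletion replicates was -0.029. The part of length in the values of apc-11 and emb-1 was not tested. Of the 3177 longer genes 49.7% were lower upon depletion, and of the 770 shorter ones 22.7%.

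**Figure D4:**
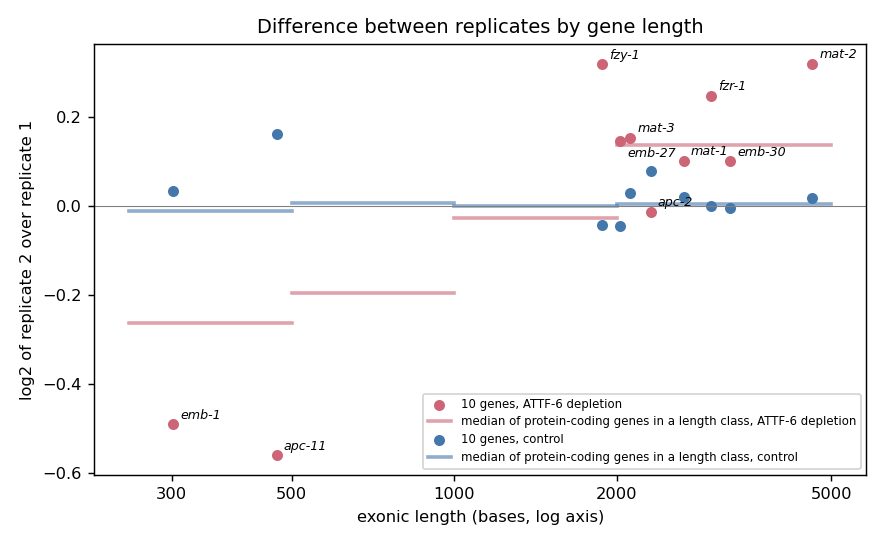
Log2 ratio of replicate 2 to replicate 1 (y axis) against exonic length in bases (x axis, log scale) for the 10 genes in the depletion (red) and the control (blue). Horizontal lines are medians over protein-coding genes in length classes of up to 5000 bases, and apc-11 and emb-1 lie at -0.56 and -0.49 in the depletion where the class median is -0.27.

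The other genes of the pathway fell as well in the TMM-normalised fit, and the counts after scaling to the germ cell list are given beside that list. The remaining subunits listed were apc-10, which helps to recognise substrates, and such-1 and gfi-3, which are related to APC5. All 3 were lower, with log2 fold changes of -0.97, -1.56 and -1.04 (largest adjusted p = 6.0e-04), and gfi-3 and apc-10 had at most 684 and 565 counts in a library. Among the 11 genes of the spindle checkpoint, which holds FZY-1 inactive until chromosomes are attached, 11 were lower and their median was -1.45. They spanned a narrow range from -1.65 for cmt-1 to -1.26 for zwl-1. The MAD2 ortholog mdf-2 fell by 1.63 on the log2 scale, and the BUB1 ortholog bub-1 was 199.8 and 200.0 CPM in the control libraries and 68.3 and 73.8 CPM upon depletion.

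The list of APC/C targets and the separase pathway had 11 of 11 genes lower and a median of -1.63. The securin gene ify-1 was 134.7 and 124.7 CPM in the control libraries and 43.5 and 51.9 CPM upon depletion, and the separase gene sep-1 was 207.5 and 202.8 CPM against 59.1 and 64.6 CPM. Of the B-type cyclins, cyb-1 fell by 1.95 on the log2 scale, and cyb-3 fell by 2.88, from 524.2 and 515.5 CPM to 64.1 and 76.7 CPM. The related genes cyb-2.1 and cyb-2.2 had log2 fold changes of -2.18 and -2.36, and the single values are uncertain because both genes had fractional counts, from reads divided between alignments. The kleisin subunits of cohesin fell less than these cyclins, with -1.63 for the meiotic rec-8, -1.24 for scc-1, -1.18 for coh-3 and -1.51 for coh-4. Of the 11 genes on this list, 4 had larger falls than fzy-1 (cyb-1, cyb-2.1, cyb-2.2 and cyb-3), and only cyb-2.2 and cyb-3 had larger falls than apc-11.

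Other ubiquitin ligases with cullins were listed for comparison. Of these 11 genes 10 were lower, with a median over the 11 of -0.98, and cul-6 was higher. The gene cul-2, whose ligase acts with zyg-11 in the meiotic divisions, was 211.8 and 212.0 CPM in the control libraries and 95.3 and 101.7 CPM upon depletion, and zyg-11 had a log2 fold change of -1.05. The genes rbx-1 and rbx-2, which encode RING subunits as apc-11 does, had -1.33 and -0.78. By contrast, cul-6 was at 3.65 and 2.78 CPM in the control libraries against 10.1 and 13.5 CPM upon depletion, and its log2 fold change was 1.88 (adjusted p = 1.3e-04). Of the 10 genes of G1 control and cell cycle exit, 10 were lower and the median was -1.79. The retinoblastoma-like gene lin-35, which acts redundantly with fzr-1, had a log2 fold change of -1.79 and the cyclin E gene cye-1 one of -2.12. The CDK inhibitor cki-1 had the smallest fall of this list, with a log2 fold change of -0.51 (adjusted p = 0.040).

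Markers of the cell types in whole animals moved in both directions. All 18 genes of the germ cell list were lower, with a median of -1.30 and quartiles of -1.79 and -0.96, and their summed level was 3802 and 3832 CPM in the control libraries and 1312 and 1556 CPM upon depletion. The paper calls the fall in the median of its own set of germline transcripts modest. These 18 genes thus need not stand for all germline transcripts. All 12 oocyte genes were lower with a median of -2.48, and their sum went from 7552 and 7606 CPM to 1209 and 1480 CPM. Of the 7 early embryo genes 3 were tested and lower, and the list summed to 6.69 and 7.67 CPM against 0.573 and 0.431 CPM. Of the 22 soma genes 13 were higher and 2 lower (lin-26 and elt-1), with sums of 13380 and 13270 CPM against 20470 and 21140 CPM, and of the 10 sperm genes 9 were higher, with sums of 110.3 and 107.1 CPM against 202.3 and 229.2 CPM. The numbers of soma and early embryo genes called could change with 1 library left out. Such fits keep 1 library in a group, and more genes passed the filter in them. No gene of these lists was at 0 counts in all 4 libraries. The median of the 10 APC/C genes, -1.27, lay near that of the germ cell list and above that of the oocyte list, and the difference between lists was not tested. After the libraries were scaled to the 18 germ cell genes, an alternative fit in which the median of all genes tested moved by 1.34, the calls changed. Of the 10 genes 3 were then still lower, apc-11 at -0.86, fzy-1 at -0.49 and emb-27 at -0.27 (adjusted p = 0.012, 0.0039 and 0.041), and emb-30 was higher at 0.82 (adjusted p = 1.5e-04). Of all genes tested 6.76% were lower and 74.3% higher in that fit, and of the 18 germ cell genes themselves 7 were lower and 6 higher. With that scaling 0 of the 3 other subunits, 0 of the 11 checkpoint genes, 6 of the 11 targets, 0 of the 11 cullin-RING genes and 5 of the 10 G1 genes were lower, 8 cullin-RING and 3 G1 genes were higher, and 12 of 12 oocyte genes were lower. Among the targets, rec-8 is also 1 of the 18 germ cell genes used for that scaling. With scaling to the soma list, 3 soma genes and 5 sperm genes were higher. The part of the make-up of cell types in the values of the 10 APC/C genes was not tested.

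**Figure D5:**
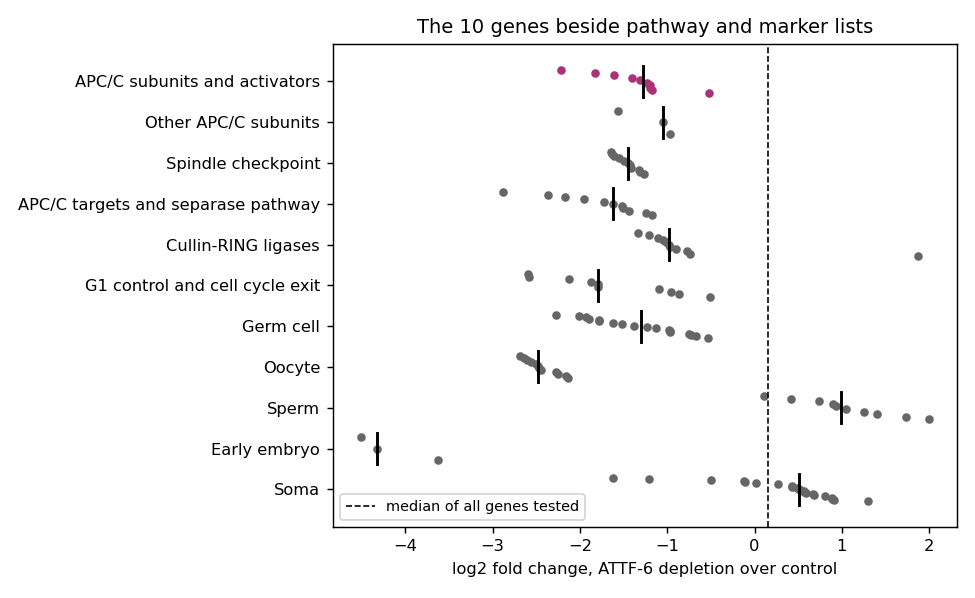
Log2 fold change of ATTF-6 depletion over control (x axis) for every tested gene (points) of the APC/C and of each pathway or marker list (y axis), with the list median as a vertical bar and the median of all genes tested (0.16) as a dashed line. The 10 APC/C genes have a median of -1.27, between the cullin-RING list at -0.98 and the list of APC/C targets at -1.63, and cul-6 stands at 1.88; these values are from the TMM-normalised fit, and 3 of the 10 APC/C genes were lower after scaling to the germ cell list, against 6.76% of all genes tested.

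The positions of the 10 genes were compared with those of their neighbours. One gene lies on chromosome I, 4 on chromosome II and 5 on chromosome III. Of the 10, 5 have another protein-coding gene on the same strand at 96 to 131 bases from one or both ends. These were nemp-1 upstream of mat-3, K10D2.5 and cid-1 on either side of emb-1, pir-2 upstream of emb-30, asb-1 upstream of apc-11 and cyp-44A1 downstream of fzy-1. All 6 neighbours were lower upon depletion, as were 33.5% of the protein-coding genes tested. Their log2 fold changes were -1.48 for nemp-1, -0.53 for K10D2.5, -1.37 for cid-1, -1.22 for pir-2, -1.56 for asb-1 and -0.98 for cyp-44A1. The largest adjusted p in the edgeR test was 0.041, for K10D2.5. The gene pir-2, at 96 bases from emb-30, was 83.4 and 84.3 CPM in the control libraries and 33.7 and 38.2 CPM upon depletion, so that it fell further than emb-30. The gene asb-1, at 118 bases from apc-11, was 179.4 and 188.9 CPM against 63.9 and 61.3 CPM and fell less than apc-11.

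Of the 10 genes, 6 overlap a gene on the opposite strand, by between 10 and 1250 bases, and the counts were made by strand. The widest overlap was that of emb-30 with F54C8.1, of which 6 bases are exonic in both. F54C8.1 had 152 and 136 counts in the control libraries against 240 and 334 upon depletion, so it rose (log2 fold change 1.30, adjusted p = 2.9e-04) where emb-30 had 2889 and 2670 against 1345 and 1769. The gene emb-27 shares 61 exonic bases with the checkpoint gene pch-2, which fell by 1.56 on the log2 scale. Whether reads of an opposite gene entered any of these counts was not tested.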

How the data were processed

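Per the paper's methods, the authors trimmed paired reads with TrimGalore, aligned them to WormBase WS279 with STAR, removed pairs with 1 aligned mate and counted pairs per gene by strand with featureCounts. Pairs with several alignments were divided between them, and rRNA had been removed before library preparation. The deposited expected counts per gene were not normalized. Tool versions are not given in the sources used here. Each table also holds 181 transposon sequences, which were left out of library sizes and tests.

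Fractional values were rounded to whole numbers, and the tables were fitted with edgeR 4.0.16 (R 4.3.3). The filter was filterByExpr (minimum count 10, minimum total 15), the normalization TMM (factors 0.949 to 1.022) and the prior count 0.125. Differences were tested two-sided by the quasi-likelihood F-test of edgeR, and p-values were adjusted after Benjamini and Hochberg over all 16591 genes, with a threshold of 0.05. DESeq2 1.42.0 was an alternative. The standard error (SE) is the size of the log2 fold change divided by the square root of F. CPM uses TMM-scaled library sizes. Lengths and positions are from the Ensembl annotation of WBcel235, in which 46924 of the 46934 gene identifiers were found. The permutation test used SciPy 1.17.1. The fits were run on simulated data with the same spread in both groups. This differs from the unequal spread of these libraries, so that run does not test the p-values given here.

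Groups came from the sample titles, which call the libraries small RNA although the protocol is that of mRNA-seq. In a supplement of the paper the 2 control columns are exchanged relative to the labels, and the labels were used. All 10 genes are named, and genes of the lists by role. The members, lists and alternatives were chosen with earlier results of these data known. No set test was run. Sequences of the genes were not used here.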

Additional observations from a re-analysis of the deposited data

How the results depend on the processing

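All 10 genes kept their direction and an adjusted p under 0.05 with DESeq2's size factors, library totals only and scaling to the 22 soma genes. The same held with no filter on low counts, DESeq2's own test and the replicate block. With each library left out in turn, all 10 kept their direction. The exception was scaling to the 18 germ cell genes, with 3 of 10 lower and 1 higher. The log2 fold changes that turned positive there were 0.17 for mat-1, 0.026 for mat-2, 0.15 for mat-3, 0.12 for emb-1, 0.82 for emb-30 and 0.15 for fzr-1, of which only emb-30 was called. The gene apc-2 was -0.061. With each library left out, emb-30 had the smallest fall of the 10, with log2 fold changes from -0.63 to -0.49. The ratio of fzy-1 to fzr-1 then changed by -0.67 to -0.60 on the log2 scale. Such fits take the spread only from the group that keeps both libraries. Without a depletion library this is the control pair, whose spread was narrower, so calls from these fits are not given. In shares of counts, the changes of mat-3 and emb-1 turned to -0.064 and -0.053 percentage points, and those of mat-1, mat-2, apc-2 and apc-11 were 0.21, -2.16, -1.36 and -1.59, against 1.72, -0.085, -0.61 and -6.45 per kilobase.

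Over all genes, 5332 were lower and 5120 higher. Scaling to the soma list gave 6876 and 2046, and scaling to the germ cell list 1122 and 12321. DESeq2, fitted to 27114 genes without the filter on low counts in place of 16591, gave 5437 and 3435. These settings moved the median of all genes tested by -0.50, 1.34 and -0.13. The replicate numbers did not pair the libraries (correlation of deviations -0.022). By construction, this value is the same for both replicate numbers. With the replicate block 10749 genes differed, against 10452 without it, and 10 of the 10 APC/C genes were lower. With 2 libraries in a group, differences between the falls of single subunits cannot pass an exact test.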
